A study of Mus musculus with 27 samples.

Results

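Disease-associated microglia genes are the transcripts that microglia take up together when they leave their resting state around plaques, dying cells and damaged myelin. The 10 genes described here are Trem2, Tyrobp, Apoe, Cst7, Lpl, Itgax, Clec7a, Spp1, Axl and Gpnmb, chosen by symbol from the 55487 rows of the deposited count table. All 10 passed the filter on low counts (at least 10 counts in at least 4 libraries) and were therefore among the 20271 genes tested. The study asked what autoantibodies against IgLON5, a neuronal cell adhesion protein, do in the brain of living mice. Male C57Bl/6J wild-type mice, 8 weeks old, carried an osmotic pump that fed the right lateral ventricle for 14 days at 0.25 μl/h with α-IgLON5#1 (IgG affinity-purified from the plasma of a patient), with a control IgG of human origin, or with PBS. The control IgG is called pCtrl here; the study's methods describe it as IgG from healthy serum, while the sample labels call it a non-reactive human monoclonal IgG. RNA was sequenced from contralateral hippocampus (4 α-IgLON5#1, 4 pCtrl and 5 PBS libraries) and cortex (4 α-IgLON5#1, 5 pCtrl and 5 PBS libraries), and the number in a library's title was taken as the mouse's number.

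Trem2 is a lipid-sensing surface receptor that signals through the adaptor Tyrobp, also called DAP12, and in mouse models of amyloid disease the full change of microglia to this state needs Trem2. Early members of the state include Tyrobp and Apoe. Cst7, Lpl, Itgax, Clec7a, Spp1, Axl and Gpnmb are known as later members that depend on Trem2. In the brain Trem2, Tyrobp, Cst7, Itgax and Clec7a are made mostly by microglia and other myeloid cells, whereas Apoe comes mostly from astrocytes and Lpl, Spp1 and Axl are also made by other cells.

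The libraries held 19385642 to 58550621 counts, and those of the α-IgLON5#1 hippocampi were the shallowest of the hippocampal groups (19428512 to 32776892 counts, against 39479753 to 52212204 in the pCtrl group). The labels give the cell type as neurons, but the tissue was dissected whole, and astrocyte markers (10 genes, summed level 4923 to 7587 normalised counts per 1000000 counts, CPM, over the 27 libraries) and oligodendrocyte markers (10 genes, 1879 to 4827 CPM) were present beside neuron markers (10 genes, 6869 to 9829 CPM). In bulk tissue a larger number of microglia and more RNA per microglial cell cannot be told apart. A tissue composition score, the mean log2 level of 100 genes higher in PBS cortex minus that of 100 genes higher in PBS hippocampus, separated the 14 cortical libraries (1.78 to 2.78) from the 13 hippocampal ones (-1.83 to 0.79). The pCtrl hippocampi of mice 10 and 37 (0.11 and 0.79) lay nearer the cortex than every other hippocampus. Calls of members that they change are given with and without them, and so are those of the other genes named for hippocampus. The α-IgLON5#1 hippocampi scored -1.83 to -0.82 and the pCtrl hippocampi -0.90 to 0.79, with little overlap. In fits with the score as a covariate, treatment and composition can therefore not be fully told apart in the hippocampus. All 4 antibody mice were numbered 8 to 17, as were 1 PBS library and 2 (hippocampus) or 3 (cortex) pCtrl libraries, the other controls being numbered 32 to 75. Whether the number marks a batch is not given in the labels.

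On GRCm38 the members lie on chromosomes 2 (Cst7), 5 (Spp1), 6 (Gpnmb, Clec7a), 7 (Apoe, Axl, Tyrobp, Itgax), 8 (Lpl) and 17 (Trem2). Only the Spp1 locus overlaps another annotated gene, Gm42793, on the same strand. RefSeq promoter windows on GRCm38.p6 were found for 8 members and not for Tyrobp and Lpl. The 250 bases before the start were searched on both strands for GAGGAA (the core bound by PU.1, the factor that myeloid cells depend on), TGANTCA (AP-1), CACGTG or CATGTG (the E-box of MITF and TFE factors, which regulate Gpnmb in lysosomal stress), and for the interferon response element. The windows of Trem2, Itgax, Clec7a and Cst7 are shown because these genes were called higher in the antibody-infused hippocampi and differ in what they hold. Capitals mark the matches.
Trem2, chr17:48346151-48346400, plus strand: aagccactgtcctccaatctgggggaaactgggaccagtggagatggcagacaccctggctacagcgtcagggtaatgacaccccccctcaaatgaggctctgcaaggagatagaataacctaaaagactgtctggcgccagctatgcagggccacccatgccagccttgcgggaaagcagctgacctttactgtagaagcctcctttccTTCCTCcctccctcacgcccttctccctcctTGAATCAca
Itgax, chr7:128129300-128129549, plus strand: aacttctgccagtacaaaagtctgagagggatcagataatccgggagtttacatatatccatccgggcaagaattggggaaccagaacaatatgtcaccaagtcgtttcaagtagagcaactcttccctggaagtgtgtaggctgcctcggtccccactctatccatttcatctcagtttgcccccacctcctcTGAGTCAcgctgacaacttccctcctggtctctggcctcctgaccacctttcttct
Clec7a, chr6:129472780-129473029, minus strand: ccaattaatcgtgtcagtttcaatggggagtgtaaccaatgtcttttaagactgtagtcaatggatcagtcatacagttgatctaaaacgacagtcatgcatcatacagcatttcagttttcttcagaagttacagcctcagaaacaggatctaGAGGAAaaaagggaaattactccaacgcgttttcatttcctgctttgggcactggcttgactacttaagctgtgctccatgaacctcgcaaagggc
Cst7, chr2:150570165-150570414, plus strand: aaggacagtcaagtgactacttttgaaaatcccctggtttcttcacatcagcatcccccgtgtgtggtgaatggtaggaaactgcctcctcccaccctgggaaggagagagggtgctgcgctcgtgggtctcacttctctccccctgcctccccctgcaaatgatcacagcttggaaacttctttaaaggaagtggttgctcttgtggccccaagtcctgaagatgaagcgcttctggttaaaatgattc
The PU.1 core was found in 5 of the 8 members' windows (Trem2, Apoe, Clec7a, Spp1 and Axl), and 23.3% of all 32851 windows of this length hold it. The AP-1 letters were found in Trem2 and Itgax (6.75% of all windows) and the interferon element only in Spp1 (2.98%). No E-box was found in any of the 8 windows, while 17.6% of all windows hold one, and the windows of Cst7 and Gpnmb held none of the 4 motifs. The Trem2 window carries its AP-1 letters starting 9 bases before the start, and the Itgax window 56 bases before it.

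In the hippocampus, 7 of the 10 genes were higher after α-IgLON5#1 than after pCtrl at adjusted p under 0.05 (edgeR quasi-likelihood test, Benjamini-Hochberg over all 20271 genes): Trem2, Tyrobp, Cst7, Lpl, Itgax, Clec7a and Gpnmb. Over all genes tested 4.23% were called higher. The strongest changes were in Cst7, Itgax and Clec7a, 6.02-fold to 6.85-fold, from levels under 1 CPM. With a fold above 2 also required, 4 members (Tyrobp, Cst7, Itgax and Clec7a) were called, against 2.21% of all genes. All 4 α-IgLON5#1 hippocampi lay above all 4 pCtrl hippocampi for 9 members, Spp1 being the exception, and 6.68% of all genes had that order. The median log2 fold change of the 10 members was 0.91, beside 0.00 over all genes.

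Against PBS in the hippocampus 5 members were called higher, Trem2, Tyrobp, Cst7, Itgax and Clec7a, all of them by more than 2-fold. The shares over all genes were 3.81% called higher and 2.56% with a fold above 2, and 7 members had all α-IgLON5#1 libraries above all PBS libraries (4.49% of all genes). In the cortex 5 members were called higher against pCtrl (Tyrobp, Cst7, Itgax, Clec7a and Gpnmb; 3.01% of all genes), of which 3 changed by more than 2-fold (2.14% of all genes). The same 5 had non-overlapping groups (3.68% of all genes). Against PBS in the cortex 6 members were called higher, Trem2 and those 5 (2.97% of all genes), 4 of them with a fold above 2 (2.24%), and these 6 had non-overlapping groups (3.14%). No member was called lower after α-IgLON5#1 in any of these comparisons. The comparisons with pCtrl and with PBS share the α-IgLON5#1 libraries.

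Leaving out pCtrl mice 10 and 37 left 4 of the 7 hippocampal calls, Trem2, Tyrobp, Cst7 and Itgax. With only the libraries numbered 8 to 17, Itgax alone was called against pCtrl (log2 2.30, adjusted p = 0.0446, in hippocampus and 2.94, adjusted p = 0.0486, in cortex). Several other members kept similar sizes in that fit without passing the threshold: in the hippocampus Trem2 had 0.94 (adjusted p = 0.0774), Tyrobp 1.26 (0.0731), Cst7 2.76 (0.153) and Clec7a 2.61 (0.262). In the cortex Tyrobp had 0.80 (adjusted p = 0.158), Cst7 2.86 (0.134) and Clec7a 3.20 (0.15). The shares of all genes called in these fits with fewer libraries were not set beside the member counts. A loss of calls among the members can therefore not be told from a loss over all genes.

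**Figure D1:**
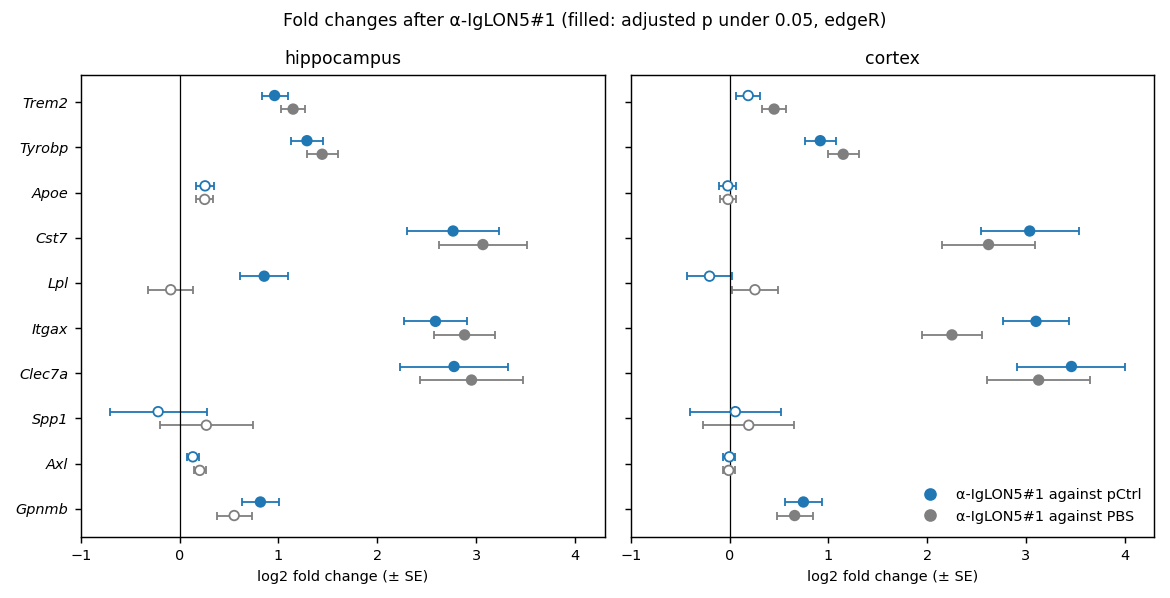
Log2 fold change (x axis, ± SE) of the 10 genes after α-IgLON5#1 in hippocampus and cortex, against pCtrl (blue) and against PBS (grey); filled points have adjusted p under 0.05 in edgeR. Cst7, Itgax and Clec7a stood between 2.25 and 3.46 in all 4 comparisons, and Spp1 had the widest errors among the genes near 0.

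Trem2, the receptor, stood at 14.8, 28.5, 23.5 and 20.7 CPM in the α-IgLON5#1 hippocampi of mice 8, 9, 16 and 17, and at 11.0, 11.8, 10.7 and 11.5 CPM in the pCtrl hippocampi of mice 10, 15, 37 and 75. The PBS hippocampi of mice 14, 32, 33, 38 and 74 had 11.7, 8.84, 8.94, 9.05 and 10.8 CPM. The antibody group did not overlap either control group, and mouse 8 was its lowest library. The log2 fold change was 0.96 ± 0.13 (SE; adjusted p = 2.36e-05, edgeR) against pCtrl and 1.15 ± 0.12 (adjusted p = 4.53e-07) against PBS.

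Tyrobp, the adaptor that carries the ITAM phosphorylated on receptor engagement, stood at 23.1, 41.9, 25.5 and 23.1 CPM in the same α-IgLON5#1 hippocampi. The pCtrl hippocampi had 10.6, 12.96, 11.3 and 11.4 CPM, and the PBS hippocampi had 8.45 to 12.5 CPM with a median of 10.5. Every antibody library was thus above every control library, with mouse 9 far above the other 3. The log2 fold change was 1.29 ± 0.17 (adjusted p = 1.14e-05) against pCtrl and 1.44 ± 0.16 (adjusted p = 4.95e-07) against PBS.

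In the cortex the receptor and its adaptor differed in their results. Cortical Tyrobp was 29.4, 28.5, 18.5 and 20.4 CPM in mice 8, 9, 16 and 17, above the 10.9 to 15.4 CPM of the 5 pCtrl cortices, and was called higher (log2 0.92 ± 0.16, adjusted p = 0.000471). Cortical Trem2 was 13.2, 12.5, 15.0 and 15.9 CPM against 12.6, 13.7, 12.5, 11.2 and 12.2 CPM with pCtrl, and these groups overlapped (log2 0.19 ± 0.12, adjusted p = 0.507). Against the PBS cortices (9.34 to 11.3 CPM) Trem2 was called higher by log2 0.45 ± 0.12 (adjusted p = 0.042), a call lost in 7 of the 9 fits that left out 1 library, with log2 0.39 to 0.50 over the 9. The difference between the tissues in the Trem2 response to α-IgLON5#1 against pCtrl was log2 0.77 ± 0.18, with adjusted p = 0.245 in edgeR and 0.0333 in DESeq2. It was called in edgeR only when the α-IgLON5#1 hippocampus of mouse 8 was left out (log2 0.92, adjusted p = 0.0418).

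Of 12 genes that carry or restrain the signal from Trem2 and Tyrobp, 10 rose in the hippocampus against pCtrl and none fell, and the median log2 fold change of the 12 was 1.22. The most certain were Ptpn6, the phosphatase SHP-1 that restrains ITAM signals (15.5 against 3.49 CPM, log2 2.14 ± 0.23), Vav1, an exchange factor downstream of Syk (14.2 against 4.19 CPM, 1.75 ± 0.23), and the linker Blnk (8.03 against 3.20 CPM, 1.32 ± 0.19). In the cortex 7 of the 12 rose, among them Ptpn6 (1.81) and Vav1 (1.61), while Blnk had log2 0.57 (adjusted p = 0.0697). Of the other Trem family genes only Treml2 and Trem3 passed the filter. Treml2 rose in the hippocampus from 0.38 to 1.45 CPM (log2 1.88 ± 0.43, adjusted p = 0.00738), and Trem3 had log2 -0.23 (adjusted p = 0.87).

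**Figure D2:**
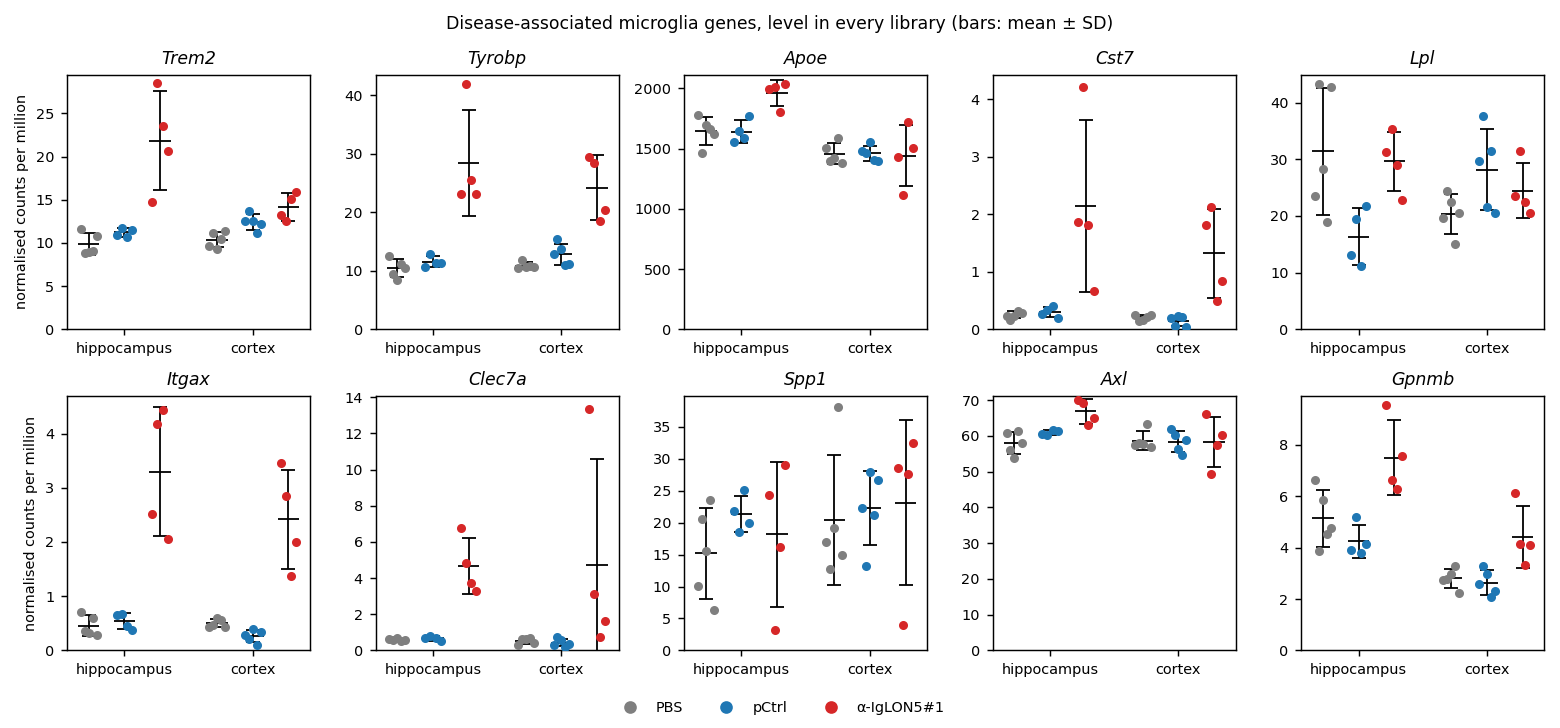
Level in CPM (y axis, from 0) of each gene in every library, grouped by tissue and treatment; each point is 1 library, and black bars give the mean ± SD, cut at 0. Red points of Tyrobp, Cst7, Itgax and Clec7a lie above the grey and blue points of the same tissue, cortical Lpl lies within their range, and Spp1 and cortical Apoe and Axl overlap the control points.

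Apoe, which packs cholesterol and phospholipid into the lipoproteins of the brain, was the most abundant member, at 1992, 2009, 1799 and 2036 CPM in the α-IgLON5#1 hippocampi. The pCtrl hippocampi had 1553, 1647, 1585 and 1773 CPM, and the 5 PBS hippocampi 1461 to 1780 CPM. All antibody libraries were above all controls, by a mean of 1.19-fold against both, and neither comparison passed the threshold (log2 0.26 ± 0.09, adjusted p = 0.0772, against pCtrl; 0.25 ± 0.08, adjusted p = 0.0953, against PBS). In the cortex the 4 values (1113 to 1718 CPM) enclosed those of the pCtrl cortices (1399 to 1551 CPM), with log2 -0.02 ± 0.08. Per kilobase of exon Apoe stood at 769 CPM in the PBS hippocampi, where Tyrobp, next in that order, stood at 15.6.

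Of 11 tested genes of lipoprotein handling, 2 rose in the hippocampus against pCtrl. Lpcat2, which remodels phospholipids and makes platelet-activating factor, went from 9.78 to 20.6 CPM (log2 1.07 ± 0.14), and the cholesterol exporter Abca1 from 65.3 to 85.9 CPM (0.40 ± 0.09, adjusted p = 0.0111). Plin2, the coat protein of lipid droplets, had 0.44 ± 0.15 (adjusted p = 0.0847). In the cortex Lpcat2 also rose (0.87, adjusted p = 0.000102) and the sterol exporter Abcg1 fell by 0.19.

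Lpl, which releases fatty acids from triglyceride-rich lipoproteins, stood at 31.4, 35.4, 29.1 and 22.9 CPM in the α-IgLON5#1 hippocampi, above the 13.1, 19.5, 11.1 and 21.7 CPM of the pCtrl mice 10, 15, 37 and 75 (log2 0.86 ± 0.25, adjusted p = 0.0342). The PBS hippocampi had 23.5, 43.4, 28.3, 18.99 and 42.8 CPM, which enclosed the antibody values, and the log2 fold change against PBS was -0.09 ± 0.23 (adjusted p = 0.92). The control groups themselves stood apart by log2 -0.95 ± 0.23 for pCtrl against PBS, with adjusted p = 0.0677 in edgeR and 0.00836 in DESeq2. The lowest pCtrl libraries, mice 10 and 37, were the hippocampi with the highest tissue composition scores. Without both of them the log2 fold change against pCtrl was 0.52 (adjusted p = 0.534), and with the score as a covariate it was 0.54 (adjusted p = 0.552). The call was also lost without the α-IgLON5#1 library of mouse 8 or that of mouse 9 (adjusted p = 0.0918 and 0.12), and without pCtrl mouse 10 or 37 alone (0.117 and 0.15). Over the 8 fits that left out 1 library the log2 fold change was 0.71 to 1.02.

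Among the 9 control hippocampi the composition scores of the PBS group (-1.80 to -0.95) and of the pCtrl group (-0.90 to 0.79) did not overlap, so a relation of Lpl to the score and the difference between these groups cannot be told apart. In PBS mice Lpl was lower in cortex than in hippocampus (15.1 to 24.5 CPM against 18.99 to 43.4 CPM; log2 -0.63 ± 0.22, adjusted p = 0.0333). In the cortex Lpl was not called against pCtrl (log2 -0.20 ± 0.23) or PBS (0.26 ± 0.23). None of the 5 tested partners of the enzyme was called against pCtrl by edgeR or DESeq2 in either tissue, with 0 in hippocampus and 2 in cortex at an unadjusted p under 0.05, a level that 4431 and 3116 of all 20271 genes reached in these comparisons. The 3 with the smallest p in the hippocampus against pCtrl were Angptl4, an inhibitor of the enzyme (log2 0.74 ± 0.46), Angptl8 (0.38 ± 0.54) and the maturation factor Lmf1 (-0.01 ± 0.08).

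Cst7 encodes cystatin F, an inhibitor of lysosomal cysteine proteases. It was near the detection limit in controls: the 9 control hippocampi held 7 to 18 counts each, or 0.16 to 0.40 CPM, and the 10 control cortices 1 to 10 counts. The α-IgLON5#1 hippocampi of mice 8, 9, 16 and 17 held 38, 75, 59 and 23 counts, or 1.87, 4.22, 1.81 and 0.66 CPM. Their cortices held 67, 59, 21 and 47 counts, or 1.82, 2.13, 0.50 and 0.84 CPM. The antibody libraries were above all controls of their tissue, and the log2 fold change against pCtrl was 2.77 ± 0.46 (adjusted p = 0.000332) in hippocampus and 3.04 ± 0.50 (adjusted p = 0.000293) in cortex. With the composition score as a covariate, which went partly with treatment, the hippocampal value was 2.13 (adjusted p = 0.102). Of the cathepsins that cystatin F acts on and the related cystatins (6 tested), Ctsh (0.94 ± 0.13), Ctsl (0.30 ± 0.06) and Ctsc (1.36 ± 0.26) rose in the hippocampus and Cst6 fell by 0.87, and in the cortex the same 3 cathepsins rose (0.59, 0.22 and 1.65). Cst6, higher in PBS cortex (4.78 CPM) than in PBS hippocampus (2.14 CPM), had log2 -0.09 against PBS (adjusted p = 0.9) and -0.38 (adjusted p = 0.522) without pCtrl mice 10 and 37, and the Ctsc call was lost without them (1.26, adjusted p = 0.0791). Ctsc, cathepsin C, activates serine proteases of granules and reached 31.0 CPM in the hippocampus.

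Itgax, the α chain CD11c of a complement-binding integrin, had the smallest adjusted p of the members against pCtrl in both tissues. The α-IgLON5#1 hippocampi had 2.51, 4.17, 4.44 and 2.06 CPM (51 to 145 counts), the pCtrl hippocampi 0.65, 0.68, 0.45 and 0.37 CPM, and the PBS hippocampi 0.28 to 0.72 CPM. The α-IgLON5#1 cortices had 3.45, 2.85, 1.38 and 2.01 CPM, and the pCtrl cortices 0.11 to 0.40 CPM (3 to 17 counts). The antibody libraries did not overlap the controls in either tissue. The log2 fold change against pCtrl was 2.59 ± 0.32 (adjusted p = 5.42e-06) in hippocampus and 3.10 ± 0.33 (adjusted p = 3.64e-06) in cortex. In the cortex the 5 pCtrl libraries all lay below the 5 PBS libraries (0.44 to 0.60 CPM; log2 -0.85 ± 0.36, adjusted p = 0.565), so that the cortical fold against PBS was smaller, 2.25 ± 0.31. The share of all genes with that order of pCtrl and PBS cortices was not counted.

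Of 4 other genes of the β2 integrins, 3 rose against each control in each tissue. Itgb2, the β2 chain that pairs with Itgax, went from 5.57 to 19.05 CPM in the hippocampus (log2 1.77 ± 0.17, adjusted p = 6.7e-07) and from 6.35 to 15.0 CPM in the cortex (1.24, adjusted p = 3.1e-05). Itgam (CD11b, of resident and recruited myeloid cells) rose by 1.26 and 1.18, and Itgal (CD11a, of lymphocytes and monocytes) by 1.97 and 1.91. The α chain Itgad was not called, with log2 0.77 in hippocampus and -0.07 in cortex against pCtrl.

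Clec7a encodes Dectin-1, a receptor for β-glucan that signals through Syk and Card9. The α-IgLON5#1 hippocampi had 6.74, 4.84, 3.74 and 3.27 CPM (86 to 137 counts), the pCtrl hippocampi 0.70, 0.81, 0.67 and 0.49 CPM and the PBS hippocampi 0.53 to 0.67 CPM (log2 2.78 ± 0.54, adjusted p = 0.00188, against pCtrl). The cortices of mice 8, 9, 16 and 17 had 13.4, 3.10, 0.76 and 1.63 CPM, against 0.21 to 0.75 CPM with pCtrl. The cortical groups thus met almost at their edges, mouse 16 (0.762) being just above the highest pCtrl library (0.745), while mouse 8 was 17.5-fold above mouse 16. The cortical log2 fold change was 3.46 ± 0.55 (adjusted p = 0.000215), and 2.08 (adjusted p = 0.00131) without mouse 8.

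That call was lost when only the cortical α-IgLON5#1 and pCtrl libraries entered the fit (adjusted p = 0.0542). In the hippocampus the Clec7a call was lost with the composition covariate (log2 2.28, adjusted p = 0.169) and without pCtrl mice 10 and 37 (2.80, adjusted p = 0.0673). Of 6 genes of its pathway, the adaptor Card9 (0.77 ± 0.17) and the kinase Prkcd (0.76 ± 0.17) rose in the hippocampus and Nfatc2 had 0.33 ± 0.11 (adjusted p = 0.0603). In the cortex Prkcd (0.80) and the paracaspase Malt1 (0.45) rose, the latter named after its value was seen.

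Gpnmb, a glycoprotein of lysosomes and melanosomes, stood at 9.55, 6.65, 6.28 and 7.56 CPM in the α-IgLON5#1 hippocampi and 3.904, 5.19, 3.78 and 4.13 CPM in the pCtrl hippocampi (log2 0.82 ± 0.19, adjusted p = 0.00763). The PBS hippocampi, at 3.87 to 6.65 CPM, reached into the antibody group (0.55 ± 0.18, adjusted p = 0.0803). The cortical values were 6.14, 4.15, 3.31 and 4.09 CPM, just clear of the 2.07 to 3.30 CPM of the pCtrl cortices (0.75 ± 0.18, adjusted p = 0.0168) and of the PBS cortices (0.66 ± 0.18, adjusted p = 0.0419). Without mouse 8 the cortical values were 0.55 (adjusted p = 0.171) and 0.46 (adjusted p = 0.434), the call against PBS was lost in 7 of the 9 fits that left out 1 library, and the call against pCtrl was also lost without pCtrl mouse 37 (adjusted p = 0.0623) and with the composition covariate (0.0885). The hippocampal call against pCtrl was lost with the composition covariate (0.65, adjusted p = 0.276) and without pCtrl mice 10 and 37 (0.69, adjusted p = 0.235). In PBS mice Gpnmb was lower in all 5 cortices than in all 5 hippocampi (2.80 against 5.14 CPM, log2 -0.87 ± 0.17, adjusted p = 0.000338), where 12.7% of all genes were called lower in cortex. The share of all genes with non-overlapping groups was not counted for that comparison.

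Of the 5 genes listed with Gpnmb, 4 factors of the MITF family and the relative Pmel, edgeR called Tfe3 against pCtrl, higher by log2 0.19 ± 0.05 in the hippocampus (adjusted p = 0.0268), and none in the cortex, where DESeq2 called Tfec. Tfec went from 0.04 to 0.38 CPM in the hippocampus and from 0.05 to 0.46 CPM in the cortex, with adjusted p = 0.0702 and 0.0592. Mitf, which regulates Gpnmb in pigment cells, had log2 -0.19 ± 0.11.

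Axl, a receptor tyrosine kinase by which phagocytes take up dying cells, varied little from library to library (49.5 to 70.1 CPM over all 27). The α-IgLON5#1 hippocampi had 70.1, 69.2, 62.9 and 65.1 CPM, and the pCtrl hippocampi 60.5, 60.2, 61.5 and 61.3 CPM. All 4 antibody libraries were higher, by a mean of 1.10-fold (log2 0.13 ± 0.06, adjusted p = 0.22), and against PBS by 1.15-fold (0.20 ± 0.06, adjusted p = 0.0555 in edgeR and 0.046 in DESeq2). In the cortex the log2 fold change was 0.00 ± 0.06 against pCtrl, with mouse 9 lowest (49.5 CPM) and mouse 8 highest (66.1 CPM) of the 4. Of the other TAM receptors and the ligands (4 tested), the ligand Pros1 rose in both tissues (0.48 ± 0.12 and 0.51), the receptor Tyro3 fell by 0.40 in the hippocampus (127 against 168 CPM, adjusted p = 0.0348), and Gas6 had -0.17 ± 0.08. The Tyro3 call rested on the pCtrl group: against PBS (113 CPM) the log2 fold change was 0.17 (adjusted p = 0.512), and without pCtrl mice 10 and 37 it was -0.12 (adjusted p = 0.784).

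Spp1, the secreted phosphoprotein osteopontin, was not called in any comparison with α-IgLON5#1. The α-IgLON5#1 hippocampi of mice 8, 9, 16 and 17 had 24.3, 3.21, 16.2 and 29.0 CPM, and the pCtrl hippocampi 21.8, 18.5, 25.2 and 20.01 CPM. The cortices of the same antibody mice had 28.5, 3.93, 27.6 and 32.4 CPM, and the pCtrl cortices 13.3 to 27.9 CPM. Mouse 9 was the lowest of all libraries of its tissue in both cases. The log2 fold change against pCtrl was -0.22 ± 0.49 in hippocampus and 0.06 ± 0.46 in cortex, and 0.11 (adjusted p = 0.937) and 0.40 (adjusted p = 0.728) without mouse 9.

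The summed level of 10 border macrophage markers, which do not include Spp1, varied with it. Across the 9 control hippocampi the log2 values had Pearson r = 0.77 (exact permutation p = 0.00648, adjusted 0.013 over 6 tests, which include those of Lpl and the composition score) and Spearman rho = 0.82 (exact permutation p = 0.0108, adjusted 0.014), and r = 0.65 over 7 libraries without the 2 farthest. Across the 10 control cortices r was 0.87 (permutation p = 0.00081, adjusted 0.00486) and rho 0.77 (permutation p = 0.0117, adjusted 0.014), and r = 0.70 over 8 libraries. These tests were two-sided and were chosen after the values had been seen. They pooled PBS and pCtrl libraries. In the hippocampus the marker sums of these groups overlapped little (30.8 to 48.8 CPM with PBS, 46.0 to 62.0 CPM with pCtrl). The relation and the difference between these groups cannot be fully told apart there. Within the antibody mice, mouse 9 had the lowest marker sum in both tissues (39.3 and 28.3 CPM) and mouse 8 the highest (76.4 and 85.1 CPM). The border macrophage markers did not move together after α-IgLON5#1: of 9 tested in the hippocampus Ms4a7 rose (1.94 ± 0.37), Lyve1 fell by 1.81 and Stab1 had 0.53 ± 0.17 (adjusted p = 0.0514), and in the cortex Ms4a7 rose (1.97) and Lyve1 fell by 1.35. Of 7 Spp1 receptor genes Itgb5 rose in the hippocampus (0.57 ± 0.11, adjusted p = 0.00187), and Itgav (-0.19) and Itga4 (0.20) were not called, and Cd44, named after its value was seen, rose in the cortex (1.54, adjusted p = 0.0481).

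**Figure D3:**
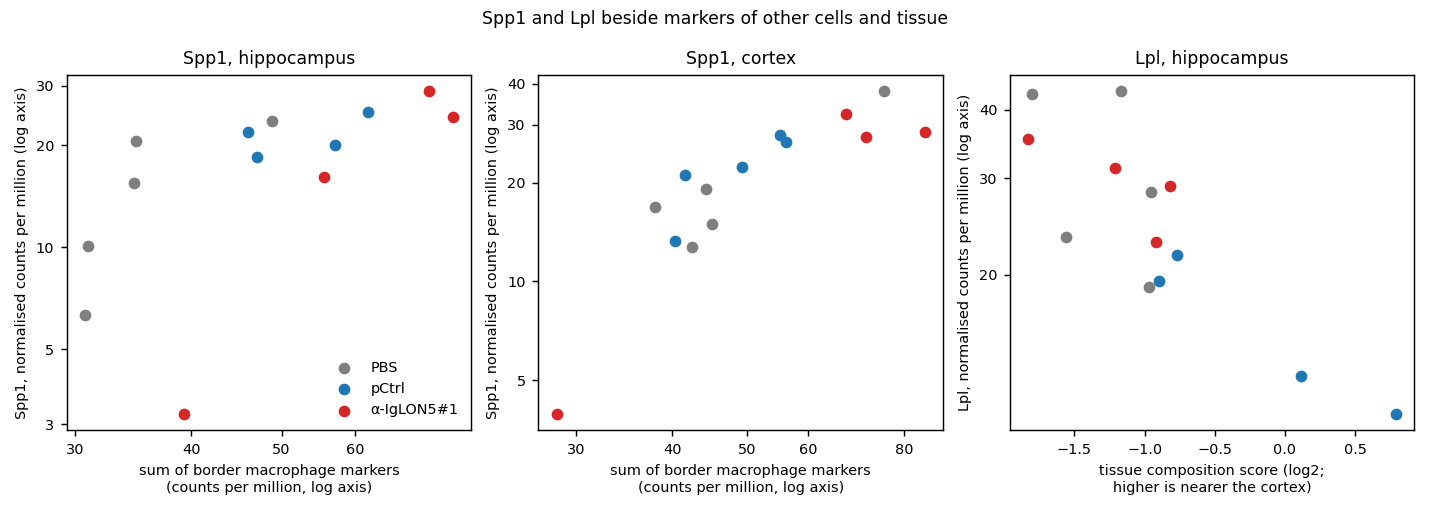
Left and middle, Spp1 (y axis, CPM, log scale) against the summed level of 10 border macrophage markers (x axis, CPM, log scale) in hippocampus and cortex; right, hippocampal Lpl (y axis, CPM, log scale) against the tissue composition score (x axis, log2). Each point is 1 library; mouse 9 is the lowest red point for Spp1 (3.21 and 3.93 CPM), and the rightmost blue points for Lpl are pCtrl mice 10 and 37 (13.1 and 11.1 CPM).

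The 4 antibody-infused mice did not have 1 order across the members. Cst7 was highest in mouse 9 in both tissues. Clec7a and Gpnmb were highest in mouse 8 in both tissues. Trem2 was lowest in mouse 8 among the hippocampi and lowest in mouse 9 among the cortices, and Itgax was highest in mouse 16 among the hippocampi but lowest in that mouse among the cortices. The most variable called value was cortical Clec7a (4.72 ± 5.85 CPM, SD, n = 4). Summed markers of monocytes and neutrophils (10 genes, of which only the neutrophil gene Ly6g was at 0 in all 4 α-IgLON5#1 cortices) were highest in mouse 8 in both tissues, at 26.6 CPM in hippocampus and 41.3 CPM in cortex, against 3.89 to 10.5 and 3.50 to 9.24 CPM in the other 3. The controls had 1.22 to 6.41 CPM in hippocampus and 1.68 to 5.23 CPM in cortex. The part of these cells in the member results was not tested.

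**Figure D4:**
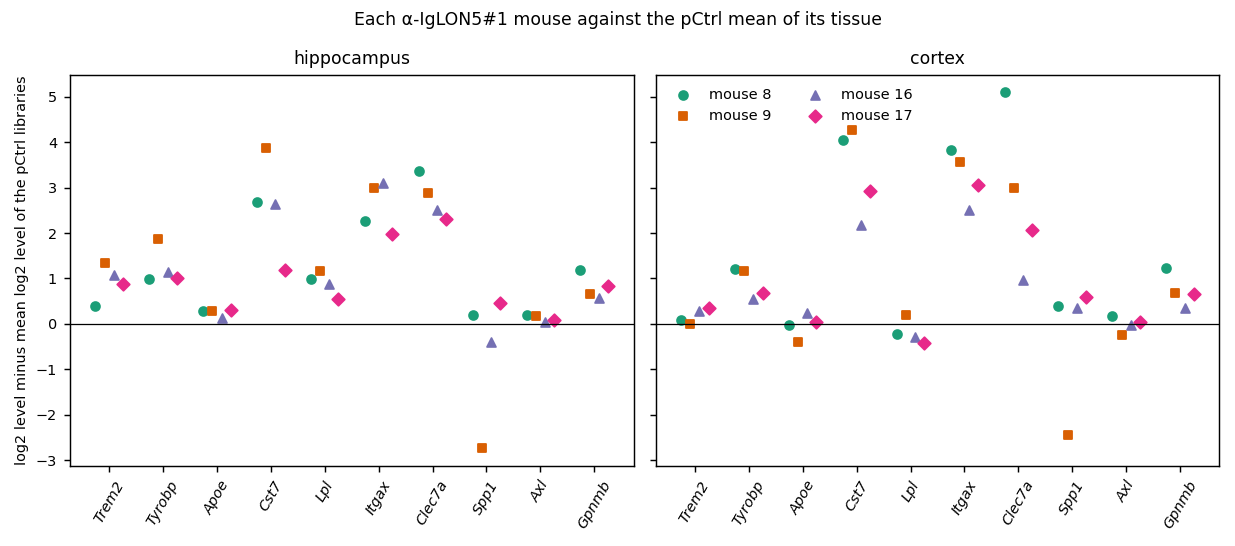
Log2 level of each gene in each α-IgLON5#1 mouse minus the mean log2 level of the pCtrl libraries of the same tissue (y axis), for hippocampus and cortex; 1 symbol per mouse. All 8 symbols of Tyrobp, Cst7, Itgax, Clec7a and Gpnmb lie above 0, cortical Clec7a spreads from 0.96 in mouse 16 to 5.10 in mouse 8, and Spp1 of mouse 9 lies at -2.73 and -2.45.

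Of 12 genes of resting microglia, 6 rose in the hippocampus against pCtrl and none fell, with Csf1r, the receptor that keeps microglia alive (log2 0.72 ± 0.11), the fractalkine receptor Cx3cr1 (0.89 ± 0.14) and Olfml3 (0.71 ± 0.13) first. In the cortex none of the 12 was called against pCtrl by edgeR (6 at an unadjusted p under 0.05, and Cx3cr1 called by DESeq2), and 3 were called against PBS. Those 6 pointed both ways, with Cx3cr1, Csf1r, Fcrls and Olfml3 above 0 and the resting markers P2ry12 and Gpr34 at log2 -0.43 and -0.55 (adjusted p = 0.213 and 0.174). Fcrls, P2ry12 and Gpr34 are named after their values were seen. The summed level of the 12 was 517 to 863 CPM in the α-IgLON5#1 hippocampi, against 413 to 472 CPM with pCtrl, and 486 to 548 CPM in the cortices, against 417 to 516 CPM. Whether the list differed between the tissues was not tested as a list.

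Each member was therefore also set against this sum in the same library. Per 1000 CPM of the 12 resting genes, the α-IgLON5#1 hippocampi held 43.3 ± 4.94 CPM of Tyrobp (SD, n = 4) and the pCtrl hippocampi 26.2 ± 0.80 (n = 4), a 1.64-fold difference. In the cortex the corresponding values were 47.0 ± 12.6 (n = 4) and 27.5 ± 2.28 (n = 5), 1.67-fold. For Trem2 they were 33.5 ± 4.19 and 25.5 ± 1.05 in hippocampus (1.31-fold), and 27.3 ± 2.75 and 26.9 ± 0.35 in cortex (1.01-fold). Cst7 stood 4.16-fold higher on this scale in hippocampus and 9.13-fold in cortex, Itgax 4.14-fold and 8.41-fold, and Clec7a 4.71-fold and 6.12-fold. The cortical Clec7a value was 3.50-fold without mouse 8 and 9.47-fold without mouse 16. Lpl, Gpnmb, Apoe, Axl and Spp1 had hippocampal log2 differences of 0.36, 0.28, -0.28, -0.40 and -1.16, the last being -0.31 without mouse 9. In a two-sided exact permutation test on log2 values, the hippocampal p was 0.0286, the smallest that 4 against 4 libraries allow, for Trem2, Tyrobp, Cst7, Itgax and Clec7a. The cortical p was 0.0159, the smallest that 4 against 5 allow, for Tyrobp, Cst7 and Itgax, 0.0317 for Clec7a, 0.0476 for Gpnmb and 0.635 for Trem2. Adjusted over the 20 tests, the smallest value was 0.0704, so none passed 0.05. With p-values that cannot go under 0.0286 and 0.0159, passing would have needed many tests at these limits. The adjusted values therefore cannot decide whether a member rose relative to the resting genes.

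Of 24 other genes of the disease-associated state, 13 rose in the hippocampus and 10 in the cortex against pCtrl, and none fell. The most certain were B2m, the light chain of MHC class I (165 against 71.3 CPM in hippocampus, log2 1.21 ± 0.12), the lysosomal protein Cd68 (1.09 ± 0.12) and the protease Ctsz (1.11 ± 0.13), which in the cortex rose by 1.02, 0.70 and 0.87. The median of the 24 was log2 0.34 in hippocampus and 0.26 in cortex.

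Some markers of blood cells were also called higher, and no list of them in full. Of 9 B and plasma cell genes 5 rose in the hippocampus against pCtrl, led by the immunoglobulin joining chain Jchain (0.50 to 44.8 CPM) and by Cd79b (0.15 to 1.32 CPM), and Jchain, Cd79b and Ms4a1 rose in the cortex. Of 8 monocyte and neutrophil genes Ly6c2 rose in the hippocampus (0.08 to 1.26 CPM), where Plac8 and Ccr2 had adjusted p = 0.0557 and 0.0693, and Ly6c2, Ccr2, Plac8 and Chil3 rose in the cortex. Of 6 T cell genes Cd4 rose in the hippocampus (0.47 to 1.49 CPM), with Cd3g (log2 1.36) and Lck (0.45) not called, and Cd3g rose in the cortex. No dendritic cell gene of 9 was called against pCtrl by edgeR or DESeq2 in either tissue, with 2 in each at an unadjusted p under 0.05 (Flt3, Ccr7 and Siglech had log2 0.39, 2.53 and 0.28 in the hippocampus), and Ccr7 was called higher against PBS in both (log2 3.98, adjusted p = 0.0195, and 4.88, adjusted p = 0.0229). Some dendritic cells also carry Itgax. The part of these cells in the Itgax and Clec7a results was not tested. Among cells of the brain itself, Gfap was the astrocyte gene of 10 that rose (452 to 1120 CPM in hippocampus; Aqp4 and Gjb6 were not called), and Tubb3 and Stmn2 were the neuron genes of 10 called lower in the hippocampus against pCtrl (log2 -0.34 and -0.29). Against PBS these had 0.02 and -0.04, and without pCtrl mice 10 and 37 -0.15 and -0.13 (adjusted p = 0.624 and 0.621). Gad2 was not called against pCtrl (-0.18) and was called lower against PBS (-0.22, adjusted p = 0.035). No gene of oligodendrocytes (10 tested), vessels (10) or choroid plexus (8) was called against pCtrl by edgeR in either tissue. In the hippocampus 0, 0 and 3 of them had an unadjusted p under 0.05 and DESeq2 called none, and in the cortex these were 0, 1 and 0 genes, of which DESeq2 called the vessel gene, Tek. In the hippocampus the 3 with the smallest p of each had log2 -0.45 (Mog), -0.17 (Olig2) and -0.39 (Mobp), -0.16 (Tek), 0.18 (Cldn5) and -0.22 (Slco1a4), and -2.21 (Kcne2), -1.74 (Otx2) and -1.16 (Clic6).

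Without pCtrl mice 10 and 37, which leaves 2 pCtrl hippocampi, fewer list genes were called in the hippocampus against pCtrl. All 3 integrin genes, 9 of the 10 signalling genes, 7 of the 13 other genes of the state, 3 of the 6 resting genes, 2 of the 3 cathepsins, 2 of the 5 B and plasma cell genes and Lpcat2 were still called higher, and Ms4a7 and Lyve1 kept their calls. The other calls were lost, several with a log2 fold change near that of all libraries. Among the genes named above they were Olfml3 (0.63, adjusted p = 0.0555), Treml2 (1.73, 0.142), Abca1 (0.41, 0.129), Card9 (0.78, 0.0819), Prkcd (0.86, 0.0576) and Itgb5 (0.55, 0.0697). The same held for Tfe3 (0.22, 0.142), Ly6c2 (3.52, 0.0525), Cd4 (1.67, 0.18) and Gfap (1.21, 0.116), while Pros1 stood at 0.35 (0.394).

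Control IgG alone was set against PBS to ask whether infused human IgG changes these genes. No member was called in the hippocampus, where 0.192% of all genes were called in either direction by edgeR, or in the cortex, where 0% were. At an unadjusted p under 0.05 there was 1 member in the hippocampus, Lpl, and 3 in the cortex, Trem2, Lpl and Itgax, beside 2828 of all 20271 genes in the hippocampus and 1650 in the cortex. DESeq2 called 1 member in the hippocampus (Lpl), beside 538 of all 20271 genes. In the cortex it called 11 of all genes and gave no adjusted p for Trem2, Lpl and Itgax. Cst7, Itgax and Clec7a had hippocampal log2 differences of 0.30 ± 0.50, 0.29 ± 0.33 and 0.18 ± 0.56 between pCtrl and PBS.

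The response to α-IgLON5#1 against pCtrl was also compared between the tissues in 1 model. No member and no gene passed in edgeR (0% of 20271 called, 2158 at an unadjusted p under 0.05, with 3 members among them, Trem2, Apoe and Lpl). DESeq2 called 36 genes, Trem2 being the only member. The members with the largest differences were Lpl (log2 1.06 ± 0.34, higher in hippocampus, adjusted p = 0.252) and Trem2. Cst7, Itgax and Clec7a had -0.27 ± 0.67, -0.51 ± 0.46 and -0.68 ± 0.77. Leaving out 1 library gave -0.82 to 0.05 for Cst7, -0.74 to -0.29 for Itgax and -1.06 to 0.70 for Clec7a. With PBS, the order of the members per kilobase of exon in the hippocampus was Apoe, Tyrobp, Axl, Spp1, Lpl, Trem2, Gpnmb, Cst7, Clec7a and Itgax, from 769 to 0.0948 CPM per kb. Neighbours whose library ranges overlapped were Axl and Spp1, Spp1 and Lpl, Lpl and Trem2, and Cst7 and Clec7a. In the PBS cortices the order differed in that Spp1 (12.4) stood before Axl (11.7) and Trem2 (2.09) before Lpl (1.95), with overlapping ranges in both pairs.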

How the data were processed

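Bulk RNA was sequenced from 27 dissected tissue pieces of 14 mice, counted by the number in a library's title (TruSeq stranded mRNA, NovaSeq, paired-end). The authors aligned the reads to GRCm38 with STAR and deposited raw counts per gene; the counting program, strand setting and annotation are not given in the sources used here. Gene ids were matched, with the version removed, to GENCODE M21 (55227 of 55487). No column of the table was left unassigned.

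A gene was tested when 4 or more libraries held 10 or more counts of it. Counts were fitted in edgeR 4.0.16 (quasi-likelihood, TMM) over 6 groups of tissue by treatment, and p-values were adjusted by Benjamini-Hochberg over all genes. CPM are per 1000000 counts of tested genes, scaled by TMM. SE is the log2 fold change over the square root of F. DESeq2 1.42.0, other filters and scalings, left-out libraries, the composition covariate and the mouse as replicate block were alternatives, and the steps were tested on simulated data. Named are all members and, of every other list, up to 3 genes with the smallest p in the hippocampus against pCtrl plus any called against its list. A few more were named after their values were seen, and 1 gene that this rule names is not reported here. The members and lists were chosen with earlier results of these data known. Nothing in the labels says more of the replicates than the number in a library's title, taken here as the mouse's number, so p-values measure the spread between libraries. Over the 13 mice with both tissues, deviations from the group means correlated at -0.0498 to 0.443, above 0.1 in 8.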

Additional observations from a re-analysis of the deposited data

Results flagged for a closer look

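Within groups of 4 or 5 libraries, 1 library stood far from the others in 4 of the 60 combinations of a member and a group, by Dixon's test on log2 levels; chance gives about 1 in 20. Tyrobp in the α-IgLON5#1 hippocampus of mouse 9 was 41.9 CPM, with the other 3 at 23.1 to 25.5 CPM. Spp1 in the α-IgLON5#1 cortex of the same mouse was 3.93 CPM, with the other 3 at 27.6 to 32.4 CPM. Tyrobp in the PBS cortex of mouse 32 was 11.9 CPM, with the other 4 at 10.5 to 10.8 CPM. Axl in the PBS cortex of mouse 38 was 63.3 CPM, with the other 4 at 56.9 to 57.9 CPM, and that library also had the highest Spp1 of all PBS and pCtrl libraries (38.1 CPM).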

How the results depend on the processing

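Member calls were recounted under each alternative. For α-IgLON5#1 against pCtrl in the hippocampus (7 members), 4 were called with a fold above 2, 4 with at least 10 counts required in every library (Cst7, Itgax and Clec7a then leave the test), 3 with the composition covariate, 1 (Itgax) with only mice numbered 8 to 17, and 4 without pCtrl mice 10 and 37, an alternative chosen after seeing the data; leaving out 1 library gave 6 to 8. In the cortex (5 members) the counts were 3 with a fold above 2, 2 with 10 counts in every library, 3 with only the groups compared and 1 (Itgax) with mice 8 to 17, and 4 to 5 leaving out 1 library. Against PBS, 10 counts in every library left 2 members in the hippocampus and 3 in the cortex, and leaving out 1 library gave 5 to 7 and 4 to 5. For pCtrl against PBS in the hippocampus DESeq2 and the fit with no filter beyond 1 count called 1 member, Lpl, and leaving out 1 library gave 0 to 1; over all genes DESeq2 called 538 there and edgeR 39. The interaction gave 1 (Trem2) in DESeq2 and 0 to 1 leaving out 1 library. PBS cortex against PBS hippocampus (2 members) gave 0 with a fold above 2, 1 with the composition covariate, and 1 to 2 leaving out 1 library. With mouse number as replicate block the interaction still called 0 members, and 2 of all genes, and PBS cortex against hippocampus 2 members; the comparisons within a tissue are between mice and have no blocked fit. Except for the fewer genes or libraries in some alternatives, the cause was not tested. Of 865 recomputed member fold changes none of a called member changed sign, 43 lost the threshold and 11 gained it; 44 values that were not called changed sign. Depth limits Cst7, Itgax and Clec7a in controls, where a cortical library can hold 1 to 24 counts.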
